A study of Mus musculus with 21 samples.

Results

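Neuropeptide transcripts of interneurons and projection neurons were followed in the cortex and hippocampus of mice that express poly-GA, a dipeptide repeat protein of C9orf72 ALS. The members were the 10 genes Vip, Sst, Npy, Cck, Penk, Pdyn, Tac1, Tac2, Crh and Cort, found by their gene symbols among the 64361 genes of the count table. All 10 were present in 1 row each and passed the filter on low counts in each comparison, although Crh did not once counts were thinned to the smallest library, for the genotypes in hippocampus and the tissues in GA-Camk2a mice. The mice were 30 to 40 weeks old. GA-Camk2a mice carry a GFP-tagged poly-GA transgene that Camk2a-Cre switches on, so that expression is meant to be restricted to excitatory neurons. They came from 2 litters on a C57BL/6J background, and the study describes them as reaching a humane endpoint near this age. The controls are labelled only as control, and which of the alleles they carried is not given in the labels. The cortex gave 5 control and 6 GA-Camk2a libraries and the hippocampus 4 control and 6 GA-Camk2a libraries. They came from 11 mice, of which 10 gave a library from each tissue, and every library belongs to batch 1 or batch 2 of the labels. The control numbers per tissue follow the labels, and a figure legend of the study gives them the other way round. The sex of the mice is not in the labels.

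Neuropeptides are cut from longer precursors, stored in dense-core vesicles and released to act on G protein-coupled receptors. In the cortex and hippocampus many of them mark classes of GABAergic interneurons. Vip is made by interneurons that mainly inhibit other interneurons, and cortical Tac2 and Crh transcripts are often found in the same class. Sst, Npy and Cort are peptides of interneurons that target dendrites. Cck is made by basket interneurons and, at lower levels per cell, by many pyramidal neurons. Penk, Pdyn and Tac1, which encode enkephalins, dynorphins and substance P, are best known as peptides of striatal projection neurons and are also made by some cortical and hippocampal neurons.

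Promoter sequences were taken from RefSeq for the mouse build GRCm38.p6 and were found for 8 of the 10 members. The 250 bases before the annotated start were searched on both strands for the cyclic AMP response element TGACGTCA, its core TGACG, the AP-1 element TGANTCA and the TATA letters TATAAA. The core lies within the full element, so each full element also counts as a core. Over 32817 promoters of the same length, 1.55% held the full element, 17.7% the core, 6.75% the AP-1 element and 12.4% the TATA letters. The 5 promoters below belong to Vip and Tac2, which were higher in GA-Camk2a cortex, to Sst, which held the full element, to Cck, which was lower in GA-Camk2a hippocampus, and to Tac1, which was lower in GA-Camk2a cortex. Capitals mark the matches, and each sequence is written 5′ to 3′ on the strand of the gene.
Vip, chr10:5638968-5639217, plus strand: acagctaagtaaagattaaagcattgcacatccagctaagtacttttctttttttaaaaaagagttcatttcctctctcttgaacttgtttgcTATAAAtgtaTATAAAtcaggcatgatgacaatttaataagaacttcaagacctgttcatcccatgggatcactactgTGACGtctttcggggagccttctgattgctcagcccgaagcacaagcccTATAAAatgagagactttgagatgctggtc
Tac2, chr10:127724228-127724477, plus strand: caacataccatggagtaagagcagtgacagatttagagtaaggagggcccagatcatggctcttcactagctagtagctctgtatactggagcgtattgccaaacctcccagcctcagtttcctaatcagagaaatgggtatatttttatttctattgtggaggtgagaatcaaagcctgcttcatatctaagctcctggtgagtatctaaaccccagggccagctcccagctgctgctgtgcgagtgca
Sst, chr16:23890845-23891094, minus strand: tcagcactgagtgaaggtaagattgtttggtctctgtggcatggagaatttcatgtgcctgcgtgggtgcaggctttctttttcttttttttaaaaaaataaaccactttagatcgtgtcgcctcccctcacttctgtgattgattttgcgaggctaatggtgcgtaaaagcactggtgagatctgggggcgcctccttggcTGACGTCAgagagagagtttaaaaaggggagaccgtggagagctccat
Cck, chr9:121495695-121495944, minus strand: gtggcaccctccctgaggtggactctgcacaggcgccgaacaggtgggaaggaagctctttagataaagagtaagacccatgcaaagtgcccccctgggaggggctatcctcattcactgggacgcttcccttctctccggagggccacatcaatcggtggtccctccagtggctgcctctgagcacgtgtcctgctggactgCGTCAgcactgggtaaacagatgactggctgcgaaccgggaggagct
Tac1, chr6:7554811-7555060, plus strand: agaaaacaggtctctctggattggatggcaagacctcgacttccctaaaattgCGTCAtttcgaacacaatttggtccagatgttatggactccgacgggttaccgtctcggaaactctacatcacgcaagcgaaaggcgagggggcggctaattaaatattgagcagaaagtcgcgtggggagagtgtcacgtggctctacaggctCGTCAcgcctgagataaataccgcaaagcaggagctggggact
Sst was the only one of the 8 members with the full element, which began 48 bases before its start. Vip held 1 core and 3 TATA matches, the last of them beginning 30 bases before the start. Cck held 1 core, Tac1 held 2 cores and Cort held 1 core. No match was found in the windows of Npy, Tac2 and Pdyn, and the AP-1 letters were found in none of the 8. Vip and Tac2, which moved in the same direction in cortex, thus shared none of these letters. A match is a description of the letters and was not tested as a site.

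The depth of the libraries lay between 1048201 and 5888102 counts, with 1975173 as the median. The labelled tissues were checked with their markers. C1ql2 and Dsp, of dentate granule cells, were higher in every hippocampus library than in every cortex library (C1ql2 from 22.0 to 42.2 CPM, the counts scaled by the library total, against 0.899 to 7.59 CPM). The row for GFP held 17 counts in all 21 libraries together and at most 4 in a library, so it does not check the genotype labels. Ddx3y, a gene of the Y chromosome, was at 3.30 to 5.39 CPM in the 6 libraries of mice 31, 16 and 35 and at 16.2 to 46.3 CPM in the other 15, while Xist was at 22.7 to 97.5 CPM in the former and 6.17 to 17.6 CPM in the latter. Both GA-Camk2a cortex libraries of batch 2, of mice 16 and 35, but neither control of that batch, belong to the low Ddx3y libraries. The genotype contrast within batch 2 of cortex therefore cannot be told apart from this difference. Cortex libraries also held transcripts of striatal projection neurons, such as Drd1 and Adora2a, at levels that differed between the genotypes, and these values are given beside Penk, Tac1 and Pdyn. Log2 fold changes come from edgeR with batch as a term and with p-values adjusted over all genes tested.

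In the cortex, 4 of the 10 peptide genes rose in GA-Camk2a mice, 2 fell and 4 did not pass the threshold. Vip, Crh, Tac2 and Npy rose and Penk and Tac1 fell, whereas Sst, Cck, Pdyn and Cort did not pass. Of 13058 genes tested in cortex, 12.5% passed an adjusted p of 0.05, 6.35% as higher and 6.17% as lower. In the hippocampus only Vip rose and only Cck fell, and 8 of the 10 did not pass. Of 14884 genes tested there, 10.9% passed, 4.97% as higher and 5.97% as lower. Beside these shares stand 6 called members of 10 in cortex and 2 of 10 in hippocampus. The median log2 fold change of the members was 0.21 in cortex and -0.10 in hippocampus, beside medians of -0.01 and 0.02 over all genes tested. The 5 cortex members Vip, Tac2, Crh, Penk and Tac1 had groups without overlap in CPM, as had 6.17% of the cortex genes tested. Vip and Cck had groups without overlap in hippocampus, as had 9.62% of the hippocampus genes tested.

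**Figure D1:**
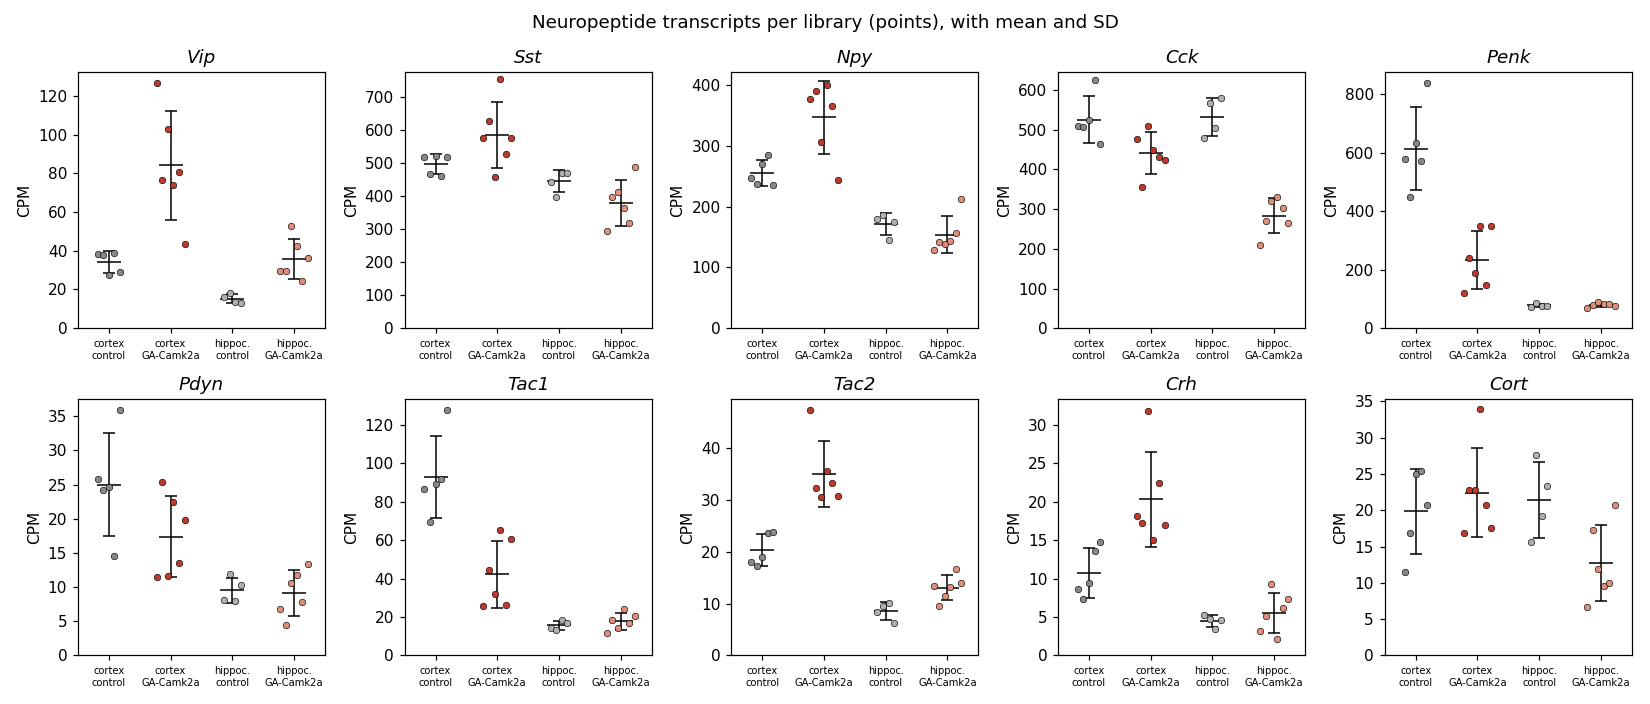
Level of each of the 10 neuropeptide transcripts in CPM (linear axes from 0), with 1 point per library for the 4 groups of tissue and genotype and black bars for the mean and SD. The 6 GA-Camk2a cortex libraries lay between 43.7 and 126.7 CPM for Vip, above all 5 control libraries, and the 6 GA-Camk2a hippocampus libraries lay between 210.2 and 330.6 CPM for Cck, below all 4 controls.

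**Figure D2:**
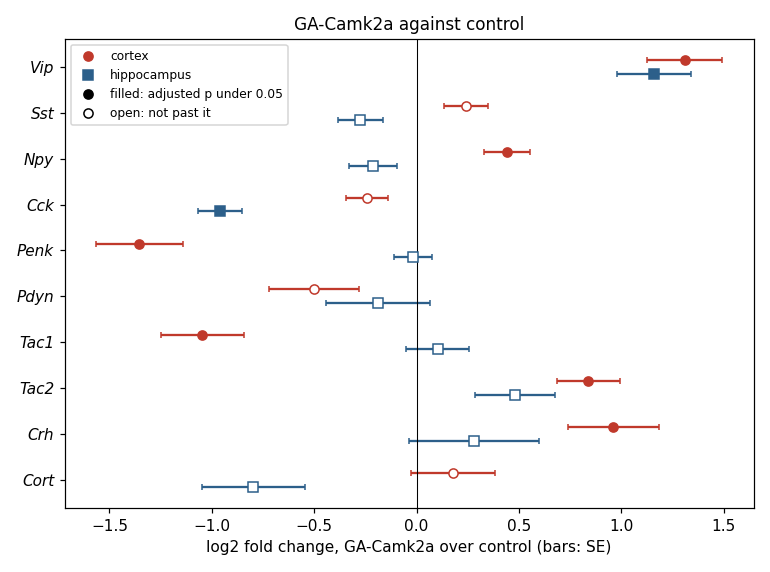
Log2 fold change of each member in GA-Camk2a mice against controls, with SE bars, in cortex (circles) and hippocampus (squares). Filled symbols passed an adjusted p of 0.05. Vip lay to the right in both tissues, while Penk and Tac1 were filled in cortex alone, to the left of 0, and Cck was filled in hippocampus alone.

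Vip encodes vasoactive intestinal peptide, the marker of the interneuron class that disinhibits pyramidal cells. In control cortex the 5 libraries, of mice 11, 31, 38, 20 and 37 in this order here and for the other members, held 38.2, 37.7, 27.7, 39.1 and 28.9 CPM. In GA-Camk2a cortex the lowest library held 43.7, the median was 78.7 and the highest held 126.7 CPM. The groups did not overlap, and the lowest GA-Camk2a value, of mouse 35, lay just above the highest control. The rise was 2.48-fold (log2 1.31 ± 0.18 SE, adjusted p = 3.67e-05). Control hippocampus, of mice 11, 37, 20 and 31, held 15.9, 18.01, 13.6 and 13.1 CPM, and GA-Camk2a hippocampus ranged from 24.5 over a median of 32.8 to 52.8 CPM. The groups were again separate, with a rise of 2.23-fold (log2 1.16 ± 0.18 SE, adjusted p = 0.000781). Mice 23 and 34 had the highest values and mouse 35 the lowest among GA-Camk2a mice in both tissues. Within batches the cortex log2 fold change was 1.51 in batch 1 and 0.86 in batch 2, where it did not pass (adjusted p = 0.131), and the hippocampus values were 1.07 (adjusted p = 0.143) and 1.26. The effects in the 2 tissues differed by -0.17 on the log2 scale (95% interval -0.77 to 0.43, adjusted p = 0.908), so a difference between them was not detected. In order of level, GA-Camk2a cortex (84.1 ± 28.1 CPM, SD, n = 6) stood first and control hippocampus (15.2 ± 2.26 CPM, SD, n = 4) last. GA-Camk2a hippocampus (35.8 ± 10.4 CPM, SD, n = 6) and control cortex (34.3 ± 5.53 CPM, SD, n = 5) overlapped. In bulk tissue, a changed number of cells of a type and a changed amount of RNA per cell cannot be told apart.

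Tac2 encodes neurokinin B, and Crh encodes corticotropin-releasing hormone. For Tac2, control cortex held 18.1, 17.2, 19.1, 23.6 and 23.8 CPM and GA-Camk2a cortex ranged from 30.5 over a median of 32.8 to 47.5 CPM. All GA-Camk2a libraries stood above all controls, and mouse 23 stood highest. Tac2 rose 1.79-fold (log2 0.84 ± 0.15 SE, adjusted p = 0.000821). For Crh, control cortex held 8.59, 7.33, 9.42, 13.6 and 14.7 CPM and GA-Camk2a cortex ranged from 15.0 over a median of 17.7 to 31.8 CPM. The groups did not overlap, although the gap between the highest control and the lowest GA-Camk2a library was small. Crh rose 1.94-fold in cortex (log2 0.96 ± 0.22 SE, adjusted p = 0.0056) on 9 to 49 counts per library, and did not pass with counts thinned to the smallest library (log2 0.58, edgeR adjusted p = 0.173). Within batch 2, neither gene passed in cortex, with log2 fold changes of 0.43 (adjusted p = 0.487) for Tac2 and 0.43 (adjusted p = 0.624) for Crh, beside 1.03 and 1.24 within batch 1. With the low Ddx3y libraries left out, Tac2 was at 0.96 and kept its call, whereas Crh (1.09, edgeR adjusted p = 0.0676) and Npy (0.49, edgeR adjusted p = 0.0565) did not. In hippocampus Tac2 was 8.62 ± 1.73 CPM (SD, n = 4) in controls against 13.1 ± 2.41 CPM (SD, n = 6) in GA-Camk2a mice and did not pass (log2 0.48 ± 0.19 SE, adjusted p = 0.131). Crh in hippocampus was near the limit of these depths, with 3 to 21 counts per library, and had a log2 fold change of 0.28 (95% interval -0.39 to 0.95, adjusted p = 0.644). For both genes the order of levels was GA-Camk2a cortex, control cortex, GA-Camk2a hippocampus and control hippocampus, and the 2 hippocampus groups overlapped. Crh in control cortex also overlapped GA-Camk2a hippocampus. The medial habenula, another site of Tac2 expression, was checked with 6 of its markers. Their summed level in cortex was 19.9 to 28.9 CPM in controls and 9.08 to 19.2 CPM in GA-Camk2a mice, and the 1 marker with enough counts to be tested there, Nwd2, fell (log2 -0.79, edgeR adjusted p = 0.0111). Their part in the values of Tac2 was not tested. The hypothalamus, a site of both peptides, was checked in the same way. Its 6 markers summed to 20.0 to 85.6 CPM in control cortex and to 30.1 to 322.6 CPM in GA-Camk2a cortex, with mouse 41 highest, and their part in the values of Tac2 and Crh was not tested.

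Npy, Sst and Cort are peptides of partly overlapping interneuron classes, Sst and Cort being related genes that act on somatostatin receptors. For Npy, control cortex held 247.1, 237.4, 270.4, 285.2 and 236.4 CPM and GA-Camk2a cortex ranged from 244.8 over a median of 372.0 to 401.0 CPM. Mouse 35 alone fell within the control range, and the other GA-Camk2a libraries stood above it. Npy rose 1.36-fold in cortex (log2 0.44 ± 0.11 SE, adjusted p = 0.0117). Without control mouse 31 its value was 0.38 (adjusted p = 0.0526), and within batches it was 0.56 and 0.22 (adjusted p = 0.0125 and 0.667). In hippocampus Npy did not pass (172.0 ± 18.1 CPM, SD, n = 4, and 153.8 ± 30.5 CPM, SD, n = 6, log2 -0.22 ± 0.12 SE, adjusted p = 0.277). Sst was 495.6 ± 30.6 CPM (SD, n = 5) in control cortex against 584.8 ± 99.7 CPM (SD, n = 6) in GA-Camk2a cortex, with a log2 fold change of 0.24 (95% interval 0.02 to 0.47, adjusted p = 0.16). In hippocampus Sst was 444.4 ± 34.1 CPM (SD, n = 4) and 378.8 ± 70.0 CPM (SD, n = 6), with -0.28 (95% interval -0.51 to -0.04, adjusted p = 0.127). The 2 tissues thus had values of opposite sign for Npy and Sst, and neither difference between tissues passed (adjusted p = 0.0907 for Npy and 0.196 for Sst). Cort was 19.9 ± 5.86 CPM (SD, n = 5) and 22.4 ± 6.17 CPM (SD, n = 6) in cortex (log2 0.18 ± 0.21 SE, adjusted p = 0.634). In hippocampus Cort held 15.6, 27.6, 19.2 and 23.4 CPM in controls and 6.74 to 20.7 CPM, with a median of 11.004, in GA-Camk2a mice. The groups overlapped, and the log2 fold change of -0.80 ± 0.25 SE just missed the threshold (adjusted p = 0.0563).

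These interneuron peptides were also set against the summed CPM of 6 markers of inhibitory neurons, a scale chosen after the data were seen. The markers were Gad1, Gad2, Slc32a1, Dlx1, Dlx6os1 and Lhx6. Their sum was 324.4 to 397.9 CPM in control cortex and 324.5 to 459.1 CPM in GA-Camk2a cortex, and 292.3 to 315.4 and 336.4 to 477.0 CPM in hippocampus. None of the 6 passed in cortex with edgeR, DESeq2 or limma-voom, and 1 had an unadjusted p under 0.05 in edgeR. In hippocampus Gad2, a GABA-synthesising enzyme, rose with edgeR (log2 0.40 ± 0.10 SE) and the other 5 did not pass, while limma-voom called Gad1 as well. On this scale Vip remained higher, from 8.11% to 11.2% of the sum in control cortex against 11.3% to 36.8% (exact permutation test, adjusted p = 0.0135). In hippocampus Vip was 4.32% to 6.16% in controls and 6.84% to 13.0% in GA-Camk2a mice (exact permutation test, adjusted p = 0.0135). Tac2 stayed higher in cortex (4.33% to 6.77% against 7.77% to 13.8%, exact permutation test, adjusted p = 0.0135). Crh was higher in cortex with groups that overlapped (1.84% to 4.13% against 3.28% to 8.99%, exact permutation test, adjusted p = 0.045), whereas Npy did not pass there (exact permutation test, adjusted p = 0.107). The groups of Sst overlapped in cortex, at 117.0% to 159.9% in controls and 129.0% to 166.5% in GA-Camk2a mice. In hippocampus Sst was lower relative to the markers (135.8% to 154.7% against 81.2% to 111.3%, exact permutation test, adjusted p = 0.0135). Npy (47.7% to 63.9% against 31.9% to 44.8%, exact permutation test, adjusted p = 0.0135) and Cort (4.94% to 9.44% against 2.00% to 4.85%, exact permutation test, adjusted p = 0.0231) were lower there as well. The log2 differences in hippocampus were 0.83 for Vip, -0.62 for Sst, -0.55 for Npy and -1.20 for Cort. The 17 tests of this kind were adjusted together. The smallest p these tests allow is 0.00216 in cortex and 0.00476 in hippocampus. The size of these ratios depends on how the markers are combined, since their level in hippocampus differed by 0.38 as a log2 sum and by 0.15 as the mean of log2 CPM. Against the mean of log2 CPM, the hippocampus differences were 0.89 for Vip, -0.52 for Sst and -1.05 for Cort, all past the threshold, and -0.45 for Npy, which just missed it (exact permutation test, adjusted p = 0.0506). Crh in cortex missed it as well (0.72, exact permutation test, adjusted p = 0.0613).

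**Figure D3:**
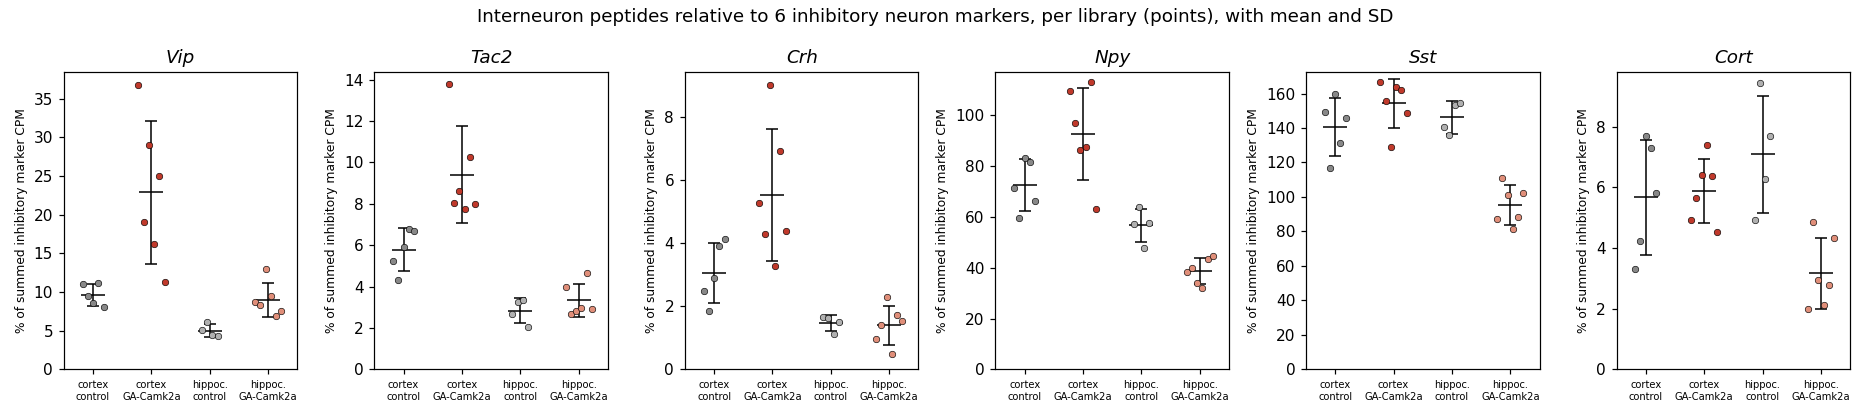
CPM of 6 interneuron peptides as a percent of the summed CPM of 6 inhibitory neuron markers (linear axes from 0), with 1 point per library for the 4 groups and black bars for the mean and SD. In hippocampus the GA-Camk2a libraries lay from 81.2% to 111.3% for Sst, below the controls at 135.8% to 154.7%, while Vip lay above its controls.

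Markers of the interneuron classes were read without the members themselves. Of 6 tested markers of Vip-type interneurons, Htr3a, a serotonin receptor subunit, and Npas1, a transcription factor, rose in cortex (log2 0.89 ± 0.29 and 0.97 ± 0.30 SE) and none of the 6 passed in hippocampus, where 2 had an unadjusted p under 0.05 in edgeR and none passed with DESeq2 or limma-voom. In cortex DESeq2 called none of the 6 and limma-voom 1. Prox1 among the 6 was also listed as a marker of dentate granule cells, so it is not particular to this class in hippocampus. Of 7 tested markers of Sst-type interneurons, Reln was lower in cortex (-0.60 ± 0.17 SE) and higher in hippocampus (0.72 ± 0.22 SE) with edgeR, and the other 6 did not pass with it. DESeq2 called Reln in neither tissue (adjusted p = 0.0849 and 0.0507), and limma-voom called Reln in both and Sox6 in hippocampus. Of 6 listed markers of Npy-type or neurogliaform interneurons, Lamp5 fell in cortex (-0.93 ± 0.13 SE), and in hippocampus Id2 rose and Kit fell. Ndnf and Cplx3 passed in neither tissue with edgeR, and Gad1 among the 6 is also 1 of the inhibitory markers above. None of the 4 markers of parvalbumin-type interneurons passed with edgeR, DESeq2 or limma-voom in either tissue, and at an unadjusted p under 0.05 edgeR had 2 in cortex and 1 in hippocampus. Microglia markers rose with the genotype, 5 of 7 in each tissue, with sums of 299.7 to 339.7 against 729.2 to 1080 CPM in cortex and 268.7 to 312.1 against 482.0 to 736.7 CPM in hippocampus. Astrocyte markers rose likewise, 4 of 6 in cortex and 5 of 6 in hippocampus. The part of these glial shifts in the peptide values was not tested.

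Penk, Tac1 and Pdyn form the second group, the opioid and tachykinin peptides of projection neurons. For Penk, the precursor of the enkephalins, control cortex held 578.1, 447.4, 634.7, 573.1 and 837.9 CPM. GA-Camk2a cortex ranged from 120.1 over a median of 214.6 to 350.9 CPM, and every GA-Camk2a library stood below every control. Penk fell to 0.391 of the control level (log2 -1.35 ± 0.21 SE, adjusted p = 0.000134), with -1.29 and -1.48 within the batches. For Tac1, the precursor of substance P, control cortex held 86.8, 69.3, 89.2, 91.7 and 127.6 CPM and GA-Camk2a cortex ranged from 25.6 over a median of 38.2 to 65.1 CPM. The groups were separate, and Tac1 was at 0.484 of the control level (log2 -1.05 ± 0.20 SE, adjusted p = 0.00122), with -0.92 and -1.29 within the batches. For Pdyn, the precursor of the dynorphins, control cortex held 25.8, 24.2, 24.7, 14.5 and 35.9 CPM and GA-Camk2a cortex ranged from 11.6 over a median of 16.7 to 25.3 CPM. The groups overlapped, and Pdyn did not pass (log2 -0.50 ± 0.22 SE, adjusted p = 0.146). In hippocampus all 3 were lower than in cortex and did not pass between the genotypes. Penk there was 77.9 ± 5.44 CPM (SD, n = 4) in controls against 79.6 ± 7.32 CPM (SD, n = 6) in GA-Camk2a mice, and the 95% interval of the log2 fold change, -0.22 to 0.18, excludes a fall of the size seen in cortex. Tac1 was 15.8 ± 2.31 and 17.7 ± 4.51 CPM (log2 0.10 ± 0.16 SE, adjusted p = 0.744) and Pdyn was 9.55 ± 1.85 and 9.13 ± 3.35 CPM (log2 -0.19 ± 0.25 SE, adjusted p = 0.708).

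The fall of Penk and Tac1 in cortex went along with a fall of striatal projection neuron transcripts in the same libraries. All 11 markers of these neurons reported here fell in GA-Camk2a cortex, among them the dopamine receptor Drd1 (log2 -1.38), the adenosine receptor Adora2a (-1.95) and Rgs9 (-1.68), and their median was -1.495. Their summed level was 574.3, 651.5, 626.7, 583.1 and 768.5 CPM in the control cortex libraries, in the order of the values above, and 193.2 to 330.5 CPM in GA-Camk2a cortex. Among the 6 GA-Camk2a cortex libraries the order of Penk was the order of the striatal sum, from mouse 23 as the lowest over mice 16, 34, 30 and 41 to mouse 35 as the highest. In control cortex the orders differed, with mouse 31 lowest in Penk and mouse 11 lowest in the sum, and mouse 37 was highest in both. As a percent of the striatal sum, a scale also chosen after the data were seen, Penk was 68.7% to 109.0% in controls and 62.2% to 113.9% in GA-Camk2a mice (log2 difference -0.18, exact permutation test, adjusted p = 0.459). Tac1 was 10.6% to 16.6% and 11.7% to 21.2% (log2 difference 0.09, exact permutation test, adjusted p = 0.719). Relative to striatal markers, a fall of Penk or Tac1 was thus not detected. Pdyn was higher on this scale in GA-Camk2a cortex, at 4.97% to 8.64% against 2.49% to 4.68% in controls, with separate groups (log2 difference 0.76, exact permutation test, adjusted p = 0.0135). In CPM, however, Pdyn was not higher (log2 -0.50), and the striatal sum that divides it was lower in GA-Camk2a cortex. In hippocampus the striatal sum was 205.3 to 241.9 CPM in controls and 203.5 to 297.6 CPM in GA-Camk2a mice, and 1 of the 7 tested markers, Rasd2, fell there. How much striatal tissue each cortex sample held cannot be told apart here from a change in the transcripts of such cells.

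**Figure D4:**
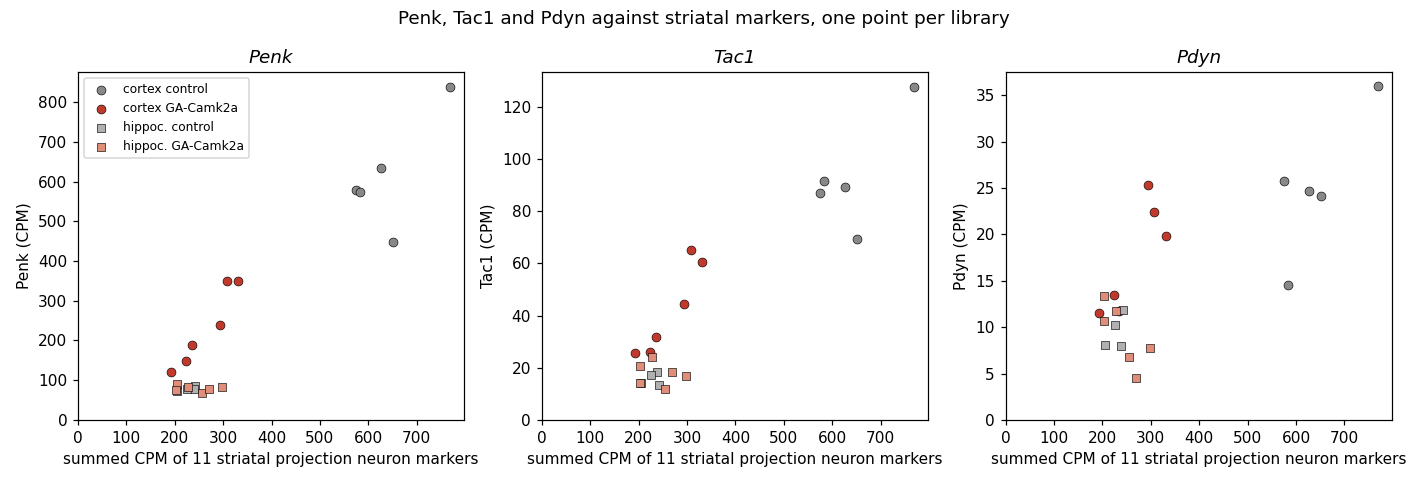
Level of Penk, Tac1 and Pdyn (CPM) in each library against the summed CPM of 11 markers of striatal projection neurons (linear axes from 0), with circles for cortex, squares for hippocampus and red shades for GA-Camk2a mice. The GA-Camk2a cortex libraries lay at sums of 193.2 to 330.5 CPM and the control cortex libraries at 574.3 to 768.5 CPM.

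Cck encodes cholecystokinin, which in these tissues comes from both interneurons and pyramidal neurons. Control hippocampus held 478.1, 566.5, 505.3 and 578.9 CPM. GA-Camk2a hippocampus ranged from 210.2 over a median of 285.6 to 330.6 CPM. The groups were far apart, and Cck fell to 0.515 of the control level (log2 -0.96 ± 0.11 SE, adjusted p = 5.36e-05), with -1.01 and -0.92 within the batches. In cortex Cck was 525.4 ± 59.8 CPM (SD, n = 5) in controls against 441.2 ± 52.7 CPM (SD, n = 6) in GA-Camk2a mice and did not pass (log2 -0.24, 95% interval -0.45 to -0.03, adjusted p = 0.131). The order of levels had control hippocampus and control cortex on top without a detected difference, then GA-Camk2a cortex, which overlapped control cortex, and, below all others, GA-Camk2a hippocampus. Markers of excitatory neurons fell as well, 5 of 7 in each tissue, with a median log2 fold change of -0.74 in cortex and -0.86 in hippocampus. Their sum was 2070 to 2616 CPM in control hippocampus and 1097 to 1489 CPM in GA-Camk2a hippocampus. As a percent of that sum Cck was 19.1% to 24.4% in controls and 19.2% to 27.2% in GA-Camk2a hippocampus (log2 difference 0.04, exact permutation test, adjusted p = 0.719). In cortex it was 21.1% to 29.4% and 26.0% to 35.3%, which was higher in GA-Camk2a mice (log2 difference 0.28, exact permutation test, adjusted p = 0.0414). The 2 tested markers of Cck-type interneurons, Cnr1 and Sncg, did not pass, at log2 values of 0.03 and 0.15 for cortex beside 0.25 and 0.30 for hippocampus. The part of the excitatory markers in the fall of Cck was not tested beyond these ratios.

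The difference between the tissues in the genotype effect was tested for all members over the 21 libraries. It passed for Cck (log2 -0.73 ± 0.16 SE, adjusted p = 0.0315), which fell more in hippocampus, and for Penk (1.34 ± 0.30 SE, adjusted p = 0.0423), which fell in cortex alone. Of 14751 genes tested, 0.400% passed. The values of Tac1 (1.13 ± 0.31 SE, adjusted p = 0.122), Cort (-0.99 ± 0.35 SE, adjusted p = 0.28) and Npy (-0.68 ± 0.18 SE) did not pass. Both calls depended on single libraries and on the settings of the fit. Cck lost its call without any of 12 single libraries and Penk without any of 17 of the 21, with adjusted p-values of up to 0.101 and 0.103, while the log2 differences stayed between -0.81 and -0.65 and between 1.22 and 1.54. Neither passed over all 21 libraries without a batch term (edgeR adjusted p = 0.0538 and 0.0751) or with thinned counts (edgeR adjusted p = 0.0835 and 0.0990), nor with the low Ddx3y libraries left out (-0.59 and 1.54). Within single batches neither passed, with -0.80 and -0.56 for Cck and 1.27 and 1.49 for Penk. No gene at all passed in these smaller sets, with 0 of 16472 in batch 1 and 0 of 14231 in batch 2. With the low Ddx3y libraries left out it was 0 of 15378. The lost calls there are thus not particular to Cck and Penk.

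Hippocampus and cortex were compared within each genotype. These comparisons use the libraries described above and are not independent of the genotype effects. In control mice 7 of the 10 members were lower in hippocampus, 0 were higher and Sst, Cck and Cort did not pass. At an unadjusted p under 0.05 the edgeR fit had 8 members, all of them lower. Of 14435 genes tested, 16.3% passed and 7.60% were lower, and 13.7% had groups without overlap, as had the 7 members. The largest differences were those of Penk (log2 -3.04 ± 0.15 SE, adjusted p = 2.33e-09) and Tac1 (-2.64 ± 0.14 SE, adjusted p = 4.02e-09). Pdyn, Crh, Tac2 and Vip differed by -1.47, -1.31, -1.22 and -1.16, and Npy by -0.62. The striatal markers, which control cortex libraries held at 574.3 to 768.5 CPM in sum and control hippocampus libraries at 205.3 to 241.9 CPM, differed in the same direction as Penk and Tac1. For Cck the difference was -0.04 (95% interval -0.27 to 0.19) and for Cort 0.02 (95% interval -0.42 to 0.47). In GA-Camk2a mice all 10 members were lower in hippocampus. Of 13098 genes tested there, 33.2% passed and 15.9% were lower, and 13.0% had groups without overlap, as had 6 members. Penk and Tac1 differed by -1.67 and -1.45, Crh by -1.90 and Tac2 by -1.56. The striatal sums overlapped between the tissues in these mice, at 193.2 to 330.5 CPM in cortex and 203.5 to 297.6 CPM in hippocampus. Sst (-0.72 ± 0.13 SE), Cck (-0.75 ± 0.11 SE) and Cort (-0.91 ± 0.24 SE) passed in GA-Camk2a mice and not in controls. Of these, only for Cck did the difference between the genotypes, the same test as in the preceding paragraph, pass.

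**Figure D5:**
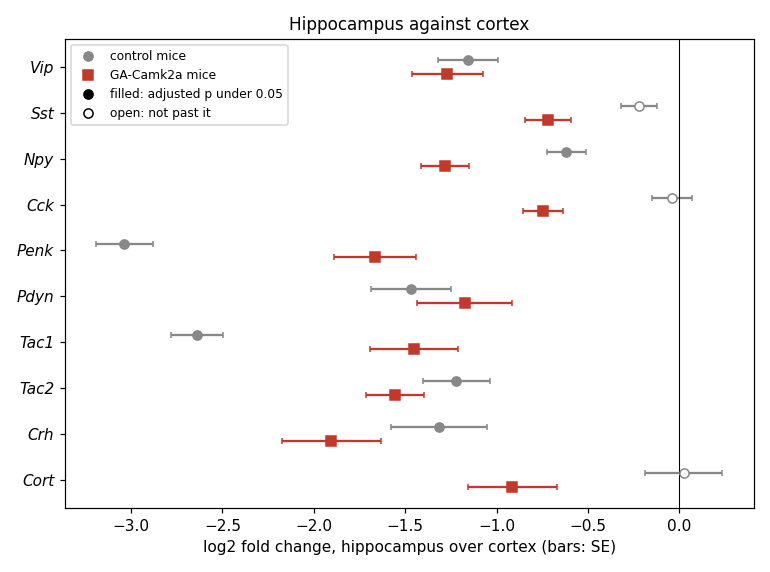
Log2 fold change of each member in hippocampus against cortex, with SE bars, in control mice (circles) and GA-Camk2a mice (squares). Filled symbols passed an adjusted p of 0.05. All 10 GA-Camk2a symbols lay to the left of 0, and Penk and Tac1 lay farthest left in controls, at -3.04 and -2.64.

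Of 20 receptors of these peptides, 7 passed the filter on low counts and were tested in each tissue and 1 passed in each, although DESeq2 called none of the 7 in cortex. Sstr2, a somatostatin receptor, fell in cortex (log2 -0.68 ± 0.18 SE, adjusted p = 0.0142), and Npy2r, a presynaptic receptor for neuropeptide Y, fell in hippocampus (-1.59 ± 0.22 SE, adjusted p = 0.00027). Over all genes tested, 12.5% passed in cortex and 10.9% in hippocampus. The summed level of the 20 receptors was 91.7 to 120.9 CPM against 62.9 to 92.9 CPM in cortex and 87.5 to 110.4 CPM against 61.9 to 81.5 CPM in hippocampus, for controls and GA-Camk2a mice. The size of this difference depends on the scale. It was -0.39 as a log2 sum and -0.08 as the mean of log2 CPM in cortex, and -0.44 and -0.26 in hippocampus.

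Of 16 genes for processing and release of neuropeptides, 3 rose and 3 fell in cortex with edgeR, and DESeq2 and limma-voom each called 4, without Scg3 and Cadps. The genes that fell were Pcsk2, a convertase that cuts precursors (-0.73 ± 0.09 SE), Chgb, a granin of dense-core vesicles (-0.34 ± 0.10 SE), and Cadps, a vesicle priming factor (-0.36 ± 0.11 SE). The genes that rose were Cpe, the carboxypeptidase that trims the cut peptides (0.56 ± 0.09 SE), and the granins Scg2 (0.35 ± 0.10 SE) and Scg3 (0.32 ± 0.11 SE). In hippocampus Chgb (-1.09 ± 0.13 SE) and Pcsk2 (-0.52 ± 0.10 SE) fell and Scg3 rose (0.39 ± 0.07 SE), and DESeq2 and limma-voom called Cpe as well. Chgb, Cadps and Scg3 in cortex were named after their values were seen. Pcsk2 and Chgb were thus lower in both tissues with all 3 tools. Of the genes for breakdown and binding, 0 of 8 tested passed in cortex with edgeR, DESeq2 or limma-voom, and 0 had an unadjusted p under 0.05 in edgeR. In hippocampus 1 of 9 did, Crhbp, which binds corticotropin-releasing hormone (-0.60 ± 0.15 SE).

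Of 14 other neuropeptide genes tested in cortex, Pnoc, the precursor of nociceptin (0.74 ± 0.20 SE), and Igf1 (0.93 ± 0.24 SE), a growth factor that interneurons and microglia make, rose, although DESeq2 did not call Pnoc (adjusted p = 0.0546). Of 15 tested in hippocampus, Igf1 rose (1.06 ± 0.21 SE) and Cartpt was called lower (-0.41 ± 0.13 SE). Cartpt passed with neither DESeq2 nor limma-voom (adjusted p = 0.136 and 0.0612), and both of these called Vgf. Genes induced by neuronal activity, several of which encode transcription factors, were called in 1 direction. In cortex 8 of 14 fell with edgeR and 7 with DESeq2 and with limma-voom, both of which lost Nr4a1, with Egr1 (-1.39 ± 0.17 SE), Arc (-1.63 ± 0.23 SE) and Homer1 (-1.12 ± 0.17 SE) having the lowest adjusted p, and in hippocampus 6 of 13 fell with edgeR and 5 with limma-voom, which lost Junb, with Egr1 at -1.02, Egr4 at -1.03 and Arc at -1.37. None rose, and the other 6 and 7 did not pass.

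Vip was the only member called in both tissues. The 5 genes whose log2 CPM was most like that of Vip over the 21 libraries, among 11188 candidates, were Rgs10 (Pearson r = 0.847), Gm12166 (0.844), Tac2 (0.844), Cxcl14 (0.838) and Ctsz (0.835). Tac2 is itself a member. These correlations are a description: the libraries share tissue, genotype and mice, so part of each r comes from the group differences given above.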

How the data were processed

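Each library was prepared by prime-seq, a bulk RNA-seq method that tags the 3′ ends of transcripts. The authors deposited 1 table of whole-number counts per gene for 21 libraries, made with zUMIs and STAR against GRCm39 with an added GFP sequence, and their methods name DESeq2. Whether molecular identifiers or reads were counted, the annotation and the use of introns and strand are not given in the sources used here, so reads of overlapping or antisense genes cannot be told apart. Of 64362 rows, 64361 were used as mouse genes and the GFP row was kept out of library sizes. Gene symbols were paired with 43308 of the rows, which hold 96.1% of the counts, and no column of per-sample values was left unused.

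The libraries held between 1048201 and 5888102 counts, which limits the precision for genes such as Crh. Within a group each library came from a separate mouse, so each counted as 1 sample. The 46 pairs of libraries within groups differed by more than sampling noise (chi-square per degree of freedom from 2.10 to 15.1).

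Counts were tested with edgeR 4.0.16 in R 4.3.3 (quasi-likelihood F-test, TMM scaling, filterByExpr with a minimum count of 10, batch as a term), with Benjamini-Hochberg adjustment over all genes tested and a threshold of 0.05. A single fit over both tissues gave the interaction of genotype and tissue. The methods of the study name DESeq2 (here 1.42.0), which was an alternative. The other alternatives were no batch term, upper quartile scaling, no filter, counts thinned to the smallest library, limma-voom (limma 3.58.1) with quality weights, each batch alone, each library left out, and mouse as a replicate block where tissues were compared. The same mouse number marks the same animal in both tissues, so the numbers pair them. Over 10 mice the correlation of the deviations of both tissues from their group means ran from -0.131 to 0.213. Calculations were tested on simulated data.

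The members, the 23 lists of pathway genes and markers, and the tests were chosen with earlier results of these data known. A few marker genes are not reported here and were left out of their lists without regard to their values. The ratios of a peptide to the summed CPM or mean log2 CPM of a marker list, the fits without libraries with Ddx3y under 10 CPM and the batch-alone fits of the tissue comparisons and the interaction were added after the data were seen. Ratios were tested by exact two-sided permutation of the log2 percent. Genes were named by rule: all 10 members, from each list up to 3 genes with the lowest adjusted p per tissue, every receptor past the threshold, and for members called in both tissues the 5 genes with the highest Pearson r of log2 CPM (prior count of 2). Markers of cell types are named where a result is set beside them. Promoters came from RefSeq for GRCm38.p6, an older build than that of the counts, and their coordinates belong to that build. Figures were drawn with matplotlib 3.10.9.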

Additional observations from a re-analysis of the deposited data

Results flagged for a closer look

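Among the 40 groups of 4 to 6 libraries tested for a value far from the others, which chance gives in about 1 in 20 groups, 3 held such a value. Npy in GA-Camk2a hippocampus was 213 CPM in mouse 41, with the nearest library at 156 CPM. Tac2 in GA-Camk2a cortex was 47.5 CPM in mouse 23, with the nearest at 35.7 CPM. Cort in GA-Camk2a cortex was 33.9 CPM in mouse 41, with the nearest at 22.8 CPM.

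The genotype effect differed between the tissues for Cck, by -0.73 on the log2 scale (hippocampus minus cortex, edgeR adjusted p = 0.0315). It also differed for Penk, by 1.34 (edgeR adjusted p = 0.0423). Both differences passed over all 21 libraries and lost their call when some single libraries were left out, as given above.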

How the results depend on the processing

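Over the member values, 448 of 512 kept direction and call under the alternatives, as did 583 of 630 with 1 library left out. In cortex the number of members called was 2 in batch 2 alone and 5 to 6 with 1 library left out. In hippocampus it was 4 without a filter, 1 in batch 1 alone and 2 to 4 with 1 library left out, Sst being added without GA-Camk2a mouse 41 (edgeR adjusted p = 0.0457) and Cort without control mouse 11 or GA-Camk2a mouse 30 or 41 (edgeR adjusted p from 0.0248 to 0.0399). Cort there also passed without a filter and with limma-voom (adjusted p = 0.000202 and 0.0401). Crh in cortex did not pass with thinned counts (log2 0.58, edgeR adjusted p = 0.173). For the interaction 4 members passed with DESeq2, 6 without a filter, and 0 without a batch term, with thinned counts, in each batch alone and with the libraries with low Ddx3y left out, an alternative chosen after seeing the data; with 1 library left out the number was 0 to 3. The number was 7 to 8 for the tissues in controls and 10 throughout in GA-Camk2a mice with 1 library left out. In batch 1 alone it was 5 in controls, Npy (adjusted p = 0.0609) and Crh (0.174) being lost, and in batch 2 alone it was 8 in GA-Camk2a mice, Pdyn (0.133) and Cort (0.247) being lost. With low Ddx3y libraries left out it was 4 in cortex, 2 in hippocampus, 7 between tissues in controls, where Cort was -0.10, and 9 in GA-Camk2a mice, Cort being lost (edgeR adjusted p = 0.1101). With mouse as a replicate block, a paired fit, 7 and 10 members passed between the tissues and 2 in the interaction (Cck -0.73, Penk 1.42), and no call changed. Values that changed sign in batch 2 alone were Cort in cortex (-0.26), Npy and Pdyn in hippocampus (0.039 and 0.24), Cort between tissues in controls (-0.19) and the interaction of Vip (0.41), Tac2 (0.23) and Crh (0.025). The interaction of Pdyn was -0.10 in batch 1 alone, that of Crh 0.36 with thinned counts, and Cort between tissues in controls -0.14 with limma-voom. With 1 library left out, Cort in cortex ran from -0.018 to 0.33, Penk and Pdyn in hippocampus from -0.073 to 0.040 and from -0.36 to 0.053, and Cck and Cort between tissues in controls from -0.11 to 0.052 and from -0.26 to 0.17. As a percent of their marker lists, signs changed for Tac1 (0.089), Pdyn (0.76) and Cck (0.28) in cortex and for Crh (-0.21) and Cck (0.041) in hippocampus. Against the mean of log2 CPM of the lists they changed for Tac1 (0.24), Pdyn (0.92) and Cck (0.29) in cortex and for Crh (-0.095) in hippocampus. The cause was not tested. The level of a list as a log2 sum and as the mean of log2 CPM differed by less than the pooled SD of the log2 sum in 32 of 46 pairs of list and tissue. In the other 14 it differed by more. Over all genes, edgeR called 1635 in cortex, with 1012 for thinned counts, 876 in batch 1 and 230 in batch 2; 1628 in hippocampus, with 912, 115 and 681; and 59 in the interaction, with 22 for thinned counts, 36 without batch, 110 with DESeq2 and 159 without a filter. With the low Ddx3y libraries left out it called 399, 522 and 0. These alternatives hold fewer libraries or counts, apart from those of the batch term, DESeq2 and the filter. The median of all genes was 0.13 in hippocampus, -0.16 between tissues in controls and 0.18 in the interaction with DESeq2.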

Other observations

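Markers of tissues that lie beside the cortex and hippocampus varied between the libraries used above, and their part in the member values was not tested. Choroid plexus markers summed to 1810 to 32737 CPM in control hippocampus and 1845 to 55552 CPM in GA-Camk2a hippocampus, and none of the 6 passed with edgeR, DESeq2 or limma-voom or had an unadjusted p under 0.05. In cortex they summed to 1589 to 2446 CPM and 1687 to 8190 CPM. Markers of the olfactory bulb and neuroblasts summed to 114.4 to 138.7 CPM in control cortex and 63.8 to 95.01 CPM in GA-Camk2a cortex, without overlap. Meis2 fell among them (log2 -0.84 in edgeR), and the other 3 tested did not pass. Their level in cortex differed by -0.70 as a log2 sum and by -0.33 as the mean of log2 CPM. Thalamus markers overlapped between the genotypes in both tissues, at 122.2 to 174.2 CPM and 110.6 to 154.6 CPM in cortex, where Rora fell among them (log2 -0.41 in edgeR, adjusted p = 0.026) and passed with limma-voom but not with DESeq2.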
